A study of Mus musculus with 5 samples.

Results

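B cells were 180 of 79202 barcodes that passed the filters in a merged single-cell RNA sequencing matrix of mouse kidney, or 0.227% (exact Clopper-Pearson 95% interval 0.195 to 0.263). A barcode passed with at least 500 unique molecular identifiers (UMIs, which count captured transcripts), at least 200 genes and at most 25% of its UMIs on mitochondrial genes. A B cell then had at least 2 UMIs over Cd79a and Cd79b, at least 1 UMI of Ms4a1, no UMI of Cd3d, Cd3e or Cd3g, at most 2 UMIs of Lyz2 and at most 1 UMI of Lrp2. The values of these 8 genes therefore chose the cells, and they are given only as a description.

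B cells carry an immunoglobulin on their surface as the B cell receptor, and Cd79a and Cd79b pass its signal into the cell. A resting naive B cell makes IgM and IgD from the same rearranged heavy chain gene, together with a kappa or a lambda light chain. After activation it can switch to IgG, IgA or IgE, present antigen on MHC class II to T cells, or become a plasma cell that secretes antibody. In the kidney, B cells are a small part of the resident and infiltrating leukocytes.

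The 5 samples were kidneys of the unilateral ischemia-reperfusion (UIR) model of acute kidney injury (AKI), labelled AKI day 1, AKI day 3, AKI day 14 and AKI day 28, and a Sham kidney. Each is listed once. In the study's methods the left renal pedicle was clamped, the right kidney was left in place, the mice were male C57BL/6J, and each kidney sample is said to come from 3 mice. The methods speak of more matrices than the 5 libraries here, so whether mice were pooled within a library is not known. No age or genotype is given in the labels. The study's methods do give an age, in weeks, for its male C57BL/6J mice. The labels name goblet cells as the cell type of all 5 samples, but 4 goblet cell genes (Muc2, Fcgbp, Clca1 and Spink4) summed to 109 UMIs over all passing barcodes and to 0 UMIs in B cells, while 19509 barcodes met a gate for proximal tubule cells. The matrix holds 5 libraries, numbered 1 to 5 at the end of each barcode, and no label gives the sample behind a number. All libraries were therefore treated as 1 pooled sample. No test over samples was possible, no p-value was computed and no comparison by day was made. Intervals cover counting error in these libraries only.

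Library 1 stood apart from the others. Gm42418, which overlaps ribosomal RNA, was at 241 CPM in its B cells (the UMIs of a gene summed over a group and scaled to 1000000 UMIs of that group) and between 10704 and 21882 CPM in those of the other 4 libraries. The 5 libraries held 82426945 to 139382799 UMIs over all barcodes, and 1290 passing barcodes (1.63%) had a 16-base barcode that also passed in another library. Of the 180 B cells, 4 shared a barcode in this way, and 0 shared one with another B cell.

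The Cd79 requirement left 466 barcodes and the Ms4a1 requirement 217. Of these, 215 had no Cd3 UMI, 211 also met the Lyz2 limit and 180 also met the Lrp2 limit. Just inside the limits, 17 B cells had exactly 2 UMIs of Cd79a and Cd79b, 102 had exactly 1 UMI of Ms4a1, 3 had 2 UMIs of Lyz2 and 25 had 1 UMI of Lrp2. Just outside, 26 barcodes had 1 Cd79 UMI beside Ms4a1, 192 had enough Cd79 but no Ms4a1, 4 had over 2 Lyz2 UMIs, and 10 had exactly 2 Lrp2 UMIs. The 31 barcodes left out for Lrp2, an endocytic receptor of the proximal tubule, had a median of 7601 UMIs.

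Libraries 1 to 5 gave 55, 32, 71, 13 and 9 B cells. As a share of passing barcodes this was 0.549% in library 1, 0.283% in library 2, 0.210% in library 3, 0.115% in library 4 and 0.0706% in library 5. The interval of library 1 (0.414 to 0.714) lay above those of the other 4. Neighbours from library 2 downwards had overlapping intervals. The denominators were unequal, with 33839 passing barcodes in library 3 at a median of 1242 UMIs and 10020 to 12745 in the others at medians of 3190 to 4294.5 UMIs. Against T cells, taken as barcodes with at least 2 Cd3 UMIs and no UMI of the B cell genes, the order was different. B cells were 9.89% of B and T cells in library 1, 7.37% in library 2, 30.0% in library 3, 25% in library 5 and, from 13 B cells, between 8.83% and 25.9% in library 4, and 13.4% (11.6 to 15.3) over all. Library 3, with 71 B cells and 166 T cells, lay above libraries 1 and 2 beyond the intervals, while libraries 4 and 5 were too small to be told from library 3. The intervals here and below measure only the error of counting and say nothing of how mice differ.

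**Figure D1:**
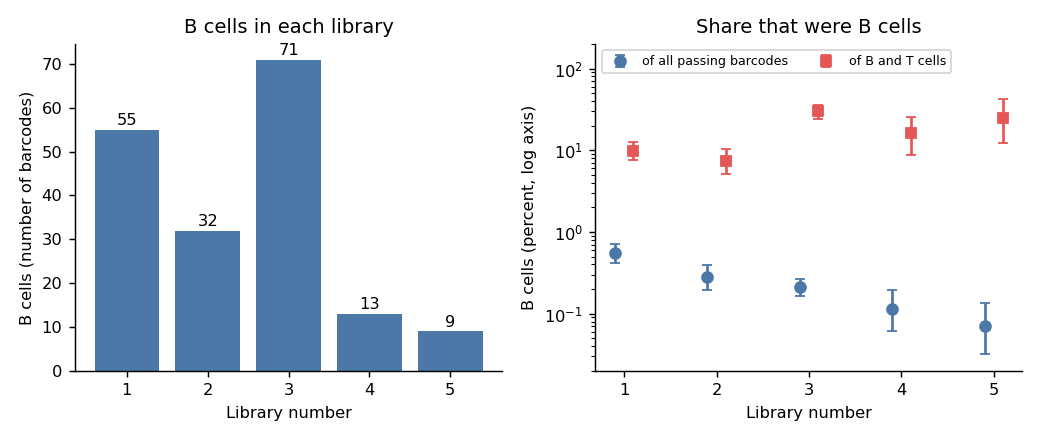
Number of B cells in each library (left, bars) and their share of all passing barcodes (circles) and of B and T cells (squares) on a log axis (right, percent, with exact 95% intervals). Library 3 gave the most B cells, 71, and library 1 the highest share of passing barcodes, 0.549%.

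The B cells held 282496 UMIs in all. A B cell had a median of 1383.5 UMIs (range 618 to 7029), 664.5 genes and 7.66% mitochondrial UMIs, and 5 of the 180 had over 3 times the median. The library medians ran from 1286 to 1582.5 UMIs. T cells (1164 barcodes) had a median of 1768 UMIs and a dendritic gate (57 barcodes with Flt3 and other dendritic cell genes) 5171, so for several genes the share of cells with a UMI is also given as its mean over random thinnings of each cell to 1000 UMIs (after thinning), which left out 12 B cells. Other shares and cell counts are not evened for depth.

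The name B cell was checked on 9 genes that the rule did not use, namely Pax5, Ebf1, Cd22, Fcer2a, Ighd, Ighm, Cd37, Ly6d and Fcmr. At least 3 of them had a UMI in 173 of the 180 cells, with a median of 5, and no cell was without any. The same was true of 1 of 1164 T cells, 2 of 57 barcodes in the dendritic gate and 3 of 19509 in the proximal tubule gate, which is deeper, with a median of 8001 UMIs. The proximal tubule gate was set on Lrp2 UMIs. Each of these gates also required no UMI of Cd79a, Cd79b or Ms4a1. Low shares of B cell genes in them, here and below, were thus in part set by the selection. Among the genes reported here with at least 50 UMIs in B cells, leaving out Cd79a, Cd79b and Ms4a1 of the rule, those that stood highest over all other passing barcodes were, in this order, Iglc1, Pax5, Fcer2a, Vpreb3, Fcrla, Ighd, Bank1, Iglc2, Iglc3, Fcmr, Ighm, H2-Ob, Siglecg, BE692007 and Mzb1, with log2 ratios of CPM from 10.11 down to 7.59. The first place of Iglc1 rests in part on 1 cell, which held 87 of its 236 UMIs, and the order without that cell was not computed.

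T cell, NK cell, macrophage and dendritic cell genes were at or near 0, and neutrophil genes were not. The rule allowed no Cd3 UMI and at most 2 of Lyz2, so low T cell and macrophage counts were in part set by the selection. Those limits took the barcodes from 217 to 215 and then to 211. Of 7 T and NK cell genes, 5 were at 0 UMIs in B cells (Trac, Trbc2, Cd4, Nkg7 and Klrb1c) and Cd8a and Gzma had 2 UMIs together. Of 9 macrophage and dendritic cell genes, 7 were at 0 and C1qa and C1qb had 4 UMIs together. Of 4 neutrophil and platelet genes, Ppbp was at 0 and S100a8, S100a9 and Retnlg had 994 UMIs together (3519 CPM, from 0 to 9273 CPM over the libraries, with the highest level in library 3), most of them in 3 cells described further on. A count of 0 over all B cells allows a level of up to 10.6 CPM (3 UMIs).

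Transcripts of the proximal tubule were present in most B cells. Of 12 listed kidney genes, 5 had 0 UMIs in B cells (Slc12a1, Kdr, Emcn, Hba-a1 and Hbb-bs). Kap, an abundant proximal tubule transcript, had a UMI in 151 of 180 B cells (83.9%), with 40 of 55 in library 1 and 21 of 32 in library 2, and in 98.7% of barcodes of the proximal tubule gate (74.8% and 86.3% after thinning). The share of B cell UMIs on 5 tubule genes was 0.308%, 0.374%, 1.03%, 1.17% and 1.34% in libraries 1 to 5, against 2.55% to 3.39% in barcodes of 10 to 100 UMIs, which hold free RNA. It was low in libraries 1 and 2 and higher in the others. Spp1, the gene of osteopontin, chosen after its values were seen, was at 76.8, 288, 6863, 759 and 725 CPM in the B cells of libraries 1 to 5. In library 3 it had a UMI in 71 of 71 B cells, and its level there in barcodes of 10 to 100 UMIs was 8033 CPM, against 1064 to 2775 in the other libraries. The part of free RNA in the B cell values was not tested.

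Receptor components with a role in signaling set B cells apart from T cells. A gene was called when its CPM differed at least 4-fold (2 on the log2 scale), the 95% interval of the ratio excluded no difference, and both groups together had at least 20 UMIs. A gene with that many UMIs is said to be tested, in the sense that its ratio was compared over these pooled UMIs and not over samples. Among the 8901 genes so tested, 180 were at least 4-fold higher in B cells (2.02%) and 476 at least 4-fold lower (5.35%), and the median log2 ratio was -0.10. These 2 counts are not on equal terms. T cells held 2642475 UMIs and B cells 282496, so a gene reached the minimum at a lower CPM in T cells. With no minimum of UMIs, 387 genes were higher and 476 lower. Of 14 listed B cell receptor and co-receptor genes beyond Cd79a and Cd79b, 12 were tested, 9 were higher and 0 were lower, with a median log2 ratio of 3.62. Bank1, a scaffold of B cell receptor signaling, was at 636, 378, 245, 234 and 242 CPM in B cells of libraries 1 to 5, and its log2 ratio to T cells was 8.03 (6.64 to 9.93).

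Kinases of the pathway were also high. Syk, the kinase that docks on the phosphorylated Cd79 tails, was at 241 CPM against 1.14 CPM in T cells (log2 ratio 7.73, interval 6.12 to 10.04), with 175 to 403 CPM over the libraries. The Src kinases Lyn (log2 ratio 4.70) and Blk (4.10), the adaptor Blnk (4.57) and the phospholipase Plcg2 (3.13) were higher too. Inhibitory receptors were among the 9 as well. Cd22, a sialic acid-binding inhibitor, had 34 UMIs against 0 in T cells, Cd72 had a log2 ratio of 2.76, and Fcgr2b, the inhibitory Fc receptor, one of 2.96 from 10 UMIs in B cells. The call of Fcgr2b was lost without library 1 (log2 ratio 1.52), and also without library 2 or 3, where under 20 UMIs were left. Those of Cd22 and Plcg2 were lost without library 3 for the same lack of UMIs. Cr2, Btk, Cd81, Cd24a and Ptprc were not called. Cr2 and Btk had 12 and 19 UMIs in B cells and 0 in T cells, under the minimum of 20.

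Transcription factors of the B lineage followed the receptor genes, with 8 of 13 higher and 0 lower. Ebf1, which opens the B cell program, was the most abundant of them, at 1316, 1368, 951, 1285 and 1449 CPM in libraries 1 to 5. It was found in 78.3% of B cells (68.8% after thinning), against 0.323% of the deeper proximal tubule gate, and its log2 ratio to T cells was 6.41 (5.92 to 6.94). The level was lowest in library 3 and the other 4 lay close together. Pax5, the factor that holds B cell identity, had 53 UMIs, and Pou2af1, a co-activator of octamer-binding factors, had 40, both against 0 in T cells. Spib, also at 0 in T cells, had 29 UMIs, and its call was lost without library 1 or library 3 for too few UMIs. Bcl11a, Irf8, Bach2 and Pou2f2 had log2 ratios of 8.40, 4.03, 3.41 and 2.86. Ets1, which T cells also use, was at 435 CPM in B cells and 409 in T cells (log2 ratio 0.09, interval -0.19 to 0.36). Against the dendritic gate, which lacks Ets1 in most cells, it was higher by 5.28. Foxo1, Ikzf3, Tcf3 and Bcl6 were not called against T cells.

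Promoters are shown for 4 of these genes because they hold the letters that octamer-binding factors or early B cell factor, the product of Ebf1, are known to bind. Of 43 genes looked for, 30 had an entry among RefSeq promoters (GRCm38.p6), with 38 promoters from 250 bases before to 50 bases after a gene start. ATGCAAAT, the octamer, was searched on both strands and stood in 570 of all 32851 such promoters (1.74%). Among the 30 genes it stood in those of Vpreb3 and Blnk. The core that early B cell factor binds, TCCC and GGGA with any 2 bases between them, was searched in the same way and stood in 297 (0.904%), and among the 30 genes in Cd22 and Foxo1. The 250 bases before the start are printed 5′ to 3′ on the strand of the gene, with the match in capitals. They lie at chr10:75948050-75948299 (plus strand) for Vpreb3, chr19:40994222-40994471 (minus strand) for Blnk, chr7:30879029-30879278 (minus strand) for Cd22 and chr3:52268087-52268336 (plus strand) for Foxo1. A match is a description of the letters and not a bound site.
Vpreb3: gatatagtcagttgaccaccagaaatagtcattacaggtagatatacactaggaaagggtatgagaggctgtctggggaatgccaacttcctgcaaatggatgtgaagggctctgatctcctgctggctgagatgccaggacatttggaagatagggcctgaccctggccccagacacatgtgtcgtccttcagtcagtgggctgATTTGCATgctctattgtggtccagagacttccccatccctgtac
Blnk: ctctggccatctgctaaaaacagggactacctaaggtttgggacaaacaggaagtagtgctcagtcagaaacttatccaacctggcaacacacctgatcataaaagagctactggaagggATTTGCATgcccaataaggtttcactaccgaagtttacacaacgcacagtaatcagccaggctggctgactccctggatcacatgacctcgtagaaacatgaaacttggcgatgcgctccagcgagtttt
Cd22: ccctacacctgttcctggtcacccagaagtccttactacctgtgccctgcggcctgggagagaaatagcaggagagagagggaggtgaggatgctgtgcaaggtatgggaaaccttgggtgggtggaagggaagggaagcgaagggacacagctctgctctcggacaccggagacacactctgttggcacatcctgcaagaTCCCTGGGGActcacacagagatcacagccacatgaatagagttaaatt
Foxo1: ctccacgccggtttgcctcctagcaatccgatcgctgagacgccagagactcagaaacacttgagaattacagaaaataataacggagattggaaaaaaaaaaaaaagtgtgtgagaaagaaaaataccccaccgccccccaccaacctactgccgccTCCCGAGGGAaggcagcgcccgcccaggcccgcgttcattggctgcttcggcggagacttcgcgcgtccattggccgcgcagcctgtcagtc

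In Vpreb3 the octamer lay 45 to 38 bases before the start, in Blnk 130 to 123 bases before it, and both were the reverse complement as read on this strand. The Cd22 match lay 49 to 40 bases before the start and the Foxo1 match 92 to 83 bases before it. Expression of the 4 genes in B cells was 283 CPM for Vpreb3, 135 CPM for Blnk, 120 CPM for Cd22 and 81.4 CPM for Foxo1, which was not called against T cells.

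Immunoglobulin genes made up 1.33% of B cell UMIs, against 0.0155% in T cells. Ighm, the constant gene of IgM (chromosome 12, positions 113418558 to 113422730, minus strand, GRCm38), was at 2337, 2195, 1440, 1694 and 2576 CPM in libraries 1 to 5. It was detected in 158 of the 180 cells (79.2% after thinning), against 0.272% of proximal tubule barcodes. T cells were at 130 CPM, and 22.3% of them had a UMI. Ighd, the constant gene of IgD, which neighbours Ighm, was at 428, 666, 603, 467 and 483 CPM and was found in 82 B cells and in 0.172% of T cells (35.8% and 0.0428% after thinning). Both genes were found together in 76 cells. The level of Ighd in the libraries differed by less than their intervals, while that of Ighm was lower in library 3 than in libraries 1 and 2.

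Heavy chain classes were assigned to cells with at least 3 UMIs over the constant genes and at least 90% of them on 1 side. Of 116 cells so classed, 114 were IgM/IgD and 2 were switched, or 1.72% (0.209 to 6.09). Another cell had both, and 63 had too few UMIs. The share was 0.893% without 5 possible doublets, chosen by depth or by T cell and myeloid genes, and 4.25% without the Ms4a1 requirement. Dropping that requirement also let in 6 barcodes of a gate for antibody-secreting cells, described further on. Both switched cells were in library 1, so the share was 5.13% (0.627 to 17.3) of 39 classed cells there. In libraries 2 to 5 it was 0 of 25, 37, 7 and 8 cells, which allows up to 13.7% in library 2 and 9.49% in library 3. The first of the switched cells carried 8 UMIs of Ighg2c (IgG2c), no Ighm, and 91 UMIs of lambda constant genes. The other carried 6 UMIs of Igha (IgA), 1 each of Ighg1 and Ighe, and 7 of Igkc.

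Igkc, the kappa constant gene (chromosome 6, positions 70726435 to 70726966, plus strand), was the immunoglobulin gene with the most UMIs, at 10981, 9465, 5837, 10280 and 8695 CPM in libraries 1 to 5, and was found in 92.8% of B cells and 0.738% of proximal tubule barcodes (92.5% and 0.0875% after thinning). Library 3 had the lowest level, as for Ighm. Of the lambda constant genes, Iglc1 was at 835 CPM, Iglc2 at 673 and Iglc3 at 535. A single cell held 87 of the 236 Iglc1 UMIs. By the same limits, 80 cells were kappa, 14 were lambda, 83 had neither light chain at 90% and 3 had under 3 UMIs. Lambda was 14.9% (8.39 to 23.7) of the 94 classed cells. By library it was 7 of 40, 2 of 14, 4 of 28, 0 of 7 and 1 of 5 cells, with intervals that overlapped throughout. The share depended on the limits. The 83 cells with neither light chain at 90% were left out of it and held mostly Igkc UMIs. With classes at 10 UMIs and 75%, lambda was 9.17% (4.49 to 16.2). Without the Ms4a1 requirement, which let in the antibody-secreting barcodes, it was 10.2% (6.23 to 15.4).

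The 14 lambda cells held 233 lambda UMIs and 2 Igkc UMIs. The 83 cells with neither light chain at 90% held 909 Igkc UMIs, with a median of 8 in a cell, against 67 of Iglc1, 111 of Iglc2 and 110 of Iglc3. Iglc2 or Iglc3 had a UMI in 76 of them and Iglc1 in 35. Iglc2 and Iglc3 are near-identical copies, so reads could have been split or shared between them, and their counts are uncertain. In the 80 kappa cells, too, 45 of 55 lambda UMIs were on Iglc2 and Iglc3. Variable genes were seldom captured by the 3′ chemistry. The 183 heavy chain variable genes in the matrix had 20 UMIs in 20 cells, and the 160 kappa variable genes 11 UMIs in 9 cells, so no clone could be followed.

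**Figure D2:**
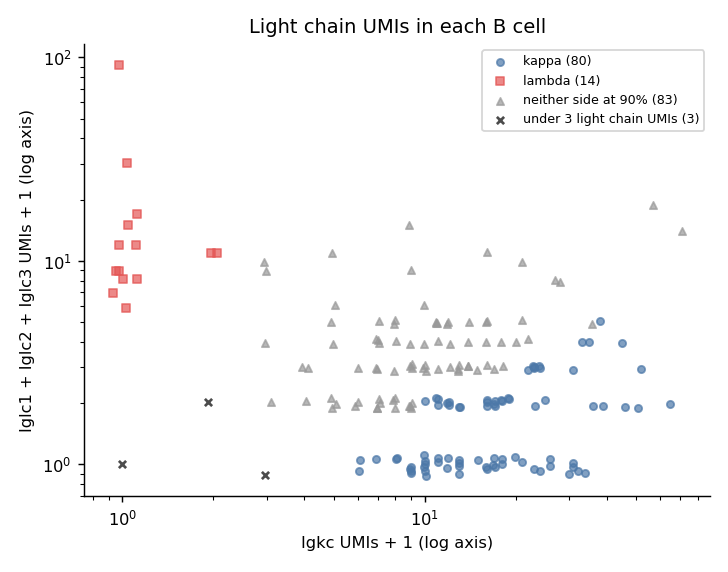
UMIs of Igkc (horizontal) and of Iglc1, Iglc2 and Iglc3 summed (vertical) in each of the 180 B cells, with 1 added and both axes on a log scale, and a small random shift so that points do not cover each other. The 80 kappa cells lie along the bottom, the 14 lambda cells at the left edge, and the 83 cells with neither side at 90% between them.

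Of 6 follicular and marginal zone genes 4 were tested against T cells, and Fcer2a was called higher. Fcer2a (CD23), a low-affinity IgE receptor of follicular B cells, was at 208, 378, 282, 701 and 80.5 CPM in libraries 1 to 5 and was found in 60 of 180 B cells (25.1% after thinning), against 0 of 1164 T cells and 0.041% of proximal tubule barcodes. Library 4 was highest and library 5, with 1 UMI, lowest. Cr2, the complement receptor that is high on marginal zone B cells, had a UMI in 9 cells, 3 of which also had Fcer2a. Of the other marginal zone genes, Dtx1 was found in 7 cells and Cd9 in 10, and Cd1d1 and S1pr3 had 0 UMIs. Vpreb3, a gene of immature and transitional cells that mature B cells also use, was found in 49 cells, at 230, 180, 226, 584 and 1208 CPM. The level in library 5, from 15 UMIs in 6 cells, lay above those of libraries 1 to 3 beyond their intervals. Cd93, another transitional gene, had 1 UMI, and Myb and Rag1 had 0.

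Most genes of other B cell states were at or near 0. Cd5, the B1 marker, Tbx21 and Itgax of age-associated B cells, and S1pr2 and Rgs13 of germinal centres had 0 UMIs in all 180 cells, which allows up to 10.6 CPM for each. Spn, Zbtb32, Ctla4, Fcrl5 and Basp1 had 1 UMI each and Itgam and Fas 2 each. Bhlhe41 of the B1 list had 1 UMI in each of libraries 1, 3 and 4. Mef2b had 3 UMIs, all in 1 cell. Zeb2, the remaining gene of the age-associated list, had 16 UMIs in 14 cells, at 21.9, 72.0, 56.5, 58.4 and 242 CPM in libraries 1 to 5, with a log2 ratio to T cells of 1.08 (0.19 to 1.87), short of 4-fold. Its intervals overlapped between libraries. At a median of 1383.5 UMIs a cell, low expression of these genes would not have been detectable in single cells.

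A cycling cell was defined by at least 2 UMIs over Mki67, Top2a, Pclaf, Birc5 and Cdk1, and 1 of 180 B cells met this (0.556%, interval 0.0141 to 3.06). That cell held 25 of the 26 Pclaf UMIs, 19 of the 35 Stmn1 UMIs, 8 of the 10 Top2a UMIs and all 3 Mef2b UMIs. It was the IgG2c cell of library 1, with 6062 UMIs, and one of the 5 possible doublets, so the share was 0% without these and without library 1. In T cells Mki67 was at 73.0 CPM and Birc5 at 71.1, against 10.6 CPM for each in B cells, and both were called lower in B cells. For Mki67 the direction was the other way within library 1.

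Among antibody secretion genes, Mzb1 was frequent and Jchain was rare. The choice of members on Ms4a1, which plasma cells largely lack, leaves plasma cells out. Mzb1, a chaperone that plasma cells use but that some naive B cell subsets also carry, was found in 66 cells, at 801, 234, 282, 175 and 403 CPM in libraries 1 to 5, with the highest level in library 1. Irf4 was higher than in T cells by 2.47 on the log2 scale. Jchain, which links IgA and IgM molecules, was found in 1 B cell, and Prdm1 and Derl3 had 0 UMIs. For comparison, a gate for antibody-secreting cells (at least 2 UMIs each of Mzb1 and Jchain and none of Ms4a1) held 6 barcodes, all in library 1, in which immunoglobulin genes made up 51.0% of UMIs and Xbp1, a factor of the secretory program, was at 637 CPM. Xbp1 was at 63.7 CPM in B cells.

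Of 14 listed genes of MHC class II presentation, which shows peptides to CD4 T cells, and of co-stimulation, 12 were tested and all 12 were called higher than in T cells, Cd83 and Cd86 of co-stimulation among them. The median log2 ratio was 5.30. Cd74, the invariant chain, was at 22521, 12542, 8021, 13376 and 12801 CPM in B cells of libraries 1 to 5 and was found in all 180, against 248.6 CPM in T cells (log2 ratio 5.83, interval 5.71 to 5.95). H2-Aa, an alpha chain, was at 6242, 4085, 2881, 4147 and 2979 CPM (log2 ratio 5.97), and H2-Ab1 and H2-Eb1, beta chains, had log2 ratios of 5.30 and 5.30. Cd74 was highest in library 1 and lowest in library 3. H2-DMb2, H2-Ob and H2-Oa of the peptide-loading machinery had log2 ratios of 8.99, 7.34 and 5.15, and the transactivator Ciita had one of 6.69. Among co-stimulatory genes, Cd83 (3.23) and Cd86 (2.60) were called, Cd40 had 10 UMIs and Cd80 had 0. The call of Cd86 was lost without library 1 (log2 ratio 1.48), and that of Ciita without library 1, 2 or 3 for too few UMIs.

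Against the dendritic gate the pattern of this group was different. There 3709 genes were tested, of which 219 were at least 4-fold higher in B cells (5.9%) and 288 lower (7.76%), and the median log2 ratio was 0.04. Without library 3 the first count was 137, and the second was 178 without library 2 and 190 without library 1. The counts were 524 and 274 without the Ms4a1 requirement, a set that holds the 6 antibody-secreting barcodes as well. With no minimum of UMIs they were 582 and 534. Of the 14 MHC class II and co-stimulatory genes, 0 were higher and 2 were lower, H2-DMb1 by 2.53 on the log2 scale and Cd80, with 0 UMIs against 21, a call that was lost without library 1 or 2 for too few UMIs. H2-Aa, H2-Ab1, H2-Eb1 and Cd74 together were at 24468 CPM in B cells, 471 CPM in T cells and 48237 CPM in the dendritic gate, a log2 ratio of -0.98 (-1.02 to -0.94) to the last. By library the ratio was -0.30, -1.14, -1.24, -1.76 and -0.09 in libraries 1 to 5. B cells were lower in each, but the interval of library 5, with 2 barcodes in the dendritic gate, included 0. H2-Ob and H2-DMb2 went the other way, with log2 ratios of 1.68 (1.15 to 2.24) and 1.37 (0.97 to 1.77). The receptor, transcription factor and immunoglobulin groups had 5 of 13, 7 of 10 and 6 of 6 tested genes higher and 0 lower. Of the 5 receptor genes, Bank1 kept its call without any 1 library. The calls of Syk (1.86) and Blnk (1.92) were lost without library 1, that of Blk without library 1, 2 or 3 and that of Cd22 without library 3, the last 2 genes for too few UMIs. Those of Bach2 and Foxo1 were lost without library 2 or 3 for too few UMIs, and the ratio of Foxo1 without library 2 was also under 4-fold (1.61). Of 12 kidney genes 6 were tested there, of which Slc34a1, Miox, Kap, Gpx3 and Slc27a2 were higher in B cells, with log2 ratios of 2.03 to 2.77, and 0 were lower. The calls of Slc34a1 (1.83 without library 2 and 1.80 without library 3, and just under 4-fold without library 4), Kap (1.70 without library 1 and 1.66 without library 2) and Slc27a2 (1.99 without library 1 and 1.66 without library 4) were lost. Median UMIs per barcode were 1383.5 in B cells and 5171 in the dendritic gate, and the part of depth and of free RNA in these ratios was not tested. Against T cells, 0 of the 11 kidney genes tested were higher and Umod, Slc12a1 and Hbb-bs were lower. The calls of Umod (log2 ratio -0.74) and Slc12a1 (0 UMIs against 27) were lost without library 1, and that of Hbb-bs without library 2, where 7 UMIs were left.

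**Figure D3:**
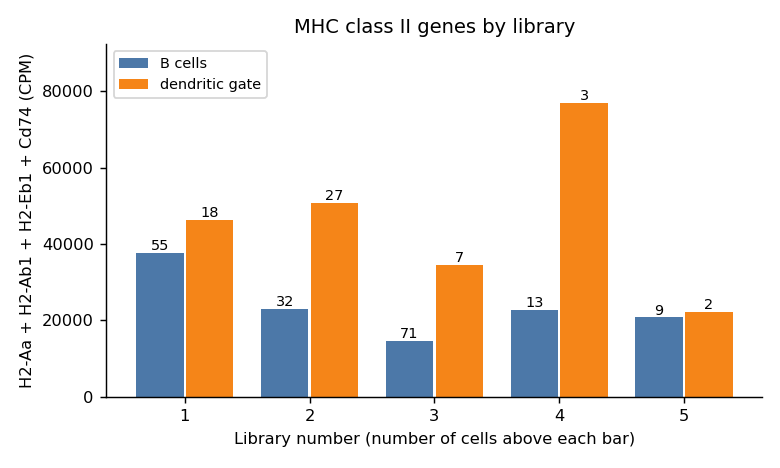
Summed CPM of H2-Aa, H2-Ab1, H2-Eb1 and Cd74 in B cells and in the dendritic gate of each library, with the number of cells above each bar and no error bars. B cells were at 14686 to 37571 CPM, below the dendritic gate in every library.

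Homing receptors were divided between the cell types. Against T cells 2 of 12 were higher, 3 lower and 7 not called. Ccr7, which leads cells to lymphoid tissue, was at 505, 1170, 555, 1051 and 161 CPM in libraries 1 to 5 and was found in 97 B cells, or 44.5% after thinning, against 3.94% of T cells (log2 ratio of CPM 3.66, interval 3.33 to 3.98). Libraries 2 and 4 were highest, and library 5 had 2 UMIs. Cxcr5, the receptor for the follicular chemokine, had a log2 ratio of 6.07 and levels of 132 to 176 CPM over the libraries. It was seen together with Ccr7 in 22 cells and without it in 15, and 75 cells had Ccr7 without Cxcr5. Cxcr3 and Ccr2, receptors for inflammatory chemokines, had 1 UMI each in B cells against 288 and 269 in T cells, and Itgal, the LFA-1 alpha chain, was lower by 2.39, a call that was lost without library 1. S1pr1, S1pr4, Cxcr4, Ccr6, Itga4, Itgb7 and Gpr183 were not called.

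The survival receptor for BAFF, Tnfrsf13c, was at 208, 126, 84.7, 350 and 322 CPM and was higher than in T cells by 6.72 on the log2 scale. Tnfrsf13b (TACI) was higher by 3.13, with most of its UMIs in libraries 1 and 3, and Tnfrsf17 (BCMA), a plasma cell receptor, had 1 UMI. The other 5 tested genes of that list were not called, Bcl2 among them, which was at 63.7 CPM in B cells and 195 in T cells (log2 ratio -1.61). Of 4 tested innate sensor genes, Ly86, which binds Cd180 (log2 ratio 5.86), and Unc93b1, which carries endosomal Toll-like receptors (4.30), were higher. Cd180 itself had 19 UMIs in B cells and 0 in T cells. Tlr7 had 7 UMIs, Tlr9 had 1, and Tlr4 and Card9 had 0.

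Clec4e, the gene of Mincle, on which the study centers, had 8 UMIs in 4 of 180 B cells, or 2.22% of cells and 28.3 CPM (12.2 to 55.8). Of these 8, 4 were in library 2 and 4 in library 3, and 4 of the 8 were in 2 of the 3 cells with neutrophil transcripts described next. Barcodes of 10 to 100 UMIs were at 7.93 CPM and all other passing barcodes at 15.2 CPM, and in the proximal tubule gate 0.733% of barcodes had a UMI. After thinning the shares were 1.56% of B cells and 0.132% of those barcodes. Without the 3 cells the B cell level was 14.5 CPM, with a log2 ratio to T cells of 0.87 (-1.13 to 2.44).

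Of the 180 B cells, 3, all in library 3, had at least 10 UMIs over S100a8 and S100a9, calgranulins of neutrophils. They held 327 of the 333 S100a8 UMIs, 528 of the 541 S100a9 UMIs, all 120 Retnlg UMIs and 46 of the 66 Il1b UMIs of all B cells. Their own depths were 1613, 2545 and 2520 UMIs, with 8, 24 and 22 UMIs of Igkc. S100a8, S100a9, Retnlg and Il1b were called higher in B cells than in T cells with them (log2 ratios 3.70, 4.09, 4.81 and 2.32). Without them S100a8 was at 21.8 CPM and S100a9 at 47.1, below T cells by 2.06 and 1.26 on the log2 scale, Retnlg had 0 UMIs, and the log2 ratio of Il1b was 0.63 (-0.13 to 1.32).

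Cytokine transcripts were few. Ltb, lymphotoxin beta, which organizes lymphoid tissue, had 106 UMIs in 73 cells, at 307, 414, 348, 876 and 242 CPM in libraries 1 to 5, or 375 CPM in all, against 553 in T cells (log2 ratio -0.56) and 39.2 in the dendritic gate (3.26). Tnf had 2 UMIs, Lta 7, Tgfb1 22 and Ebi3 2. Ccl4 had 13 UMIs in 5 cells, with 11 of the UMIs in library 3. It was called lower than in the dendritic gate, a call that was lost without library 1 (log2 ratio -1.95). Il6, Il10, Ifng and Ccl7 had 0 UMIs, and Ifng was called lower than in T cells. Apart from Il1b, no gene of the 8 tested was called higher.

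Of 9 activation and immediate early genes, Egr3 (log2 ratio 4.81) and Myc (2.89) were higher than in T cells and 0 were lower. Nr4a1, which antigen receptor signaling induces, was at 625, 936, 311, 0 and 886 CPM in libraries 1 to 5, with a log2 ratio of 1.39 (1.12 to 1.65) to T cells, short of 4-fold. It was found in 78 cells, 47 of which also had Cd83. Library 4 had 0 UMIs from 13 cells, and library 3 was below libraries 1 and 2 beyond the intervals. Jun was at 43.9, 180, 555, 234 and 725 CPM, an order unlike that of Nr4a1, but in the proximal tubule gate 89.4% of barcodes had a Jun UMI, and the part of free RNA in its levels was not tested. Of 7 interferon-stimulated genes Isg15 was lower than in T cells by 3.47 on the log2 scale and 0 were higher. Ifi27l2a, the most frequent of the list after Ly6a, was found in 49 B cells. Its level in B cells of libraries 1 to 5 was 219, 630, 282, 0 and 322 CPM. In the barcodes that hold free RNA it was 29.3, 37.0, 502, 1259 and 747 CPM. Ly6a was at 878, 198, 377, 409 and 322 CPM in B cells, against 452, 366, 1025, 1703 and 1031 in those barcodes. The part of free RNA in the levels of both genes was not tested.

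**Figure D4:**
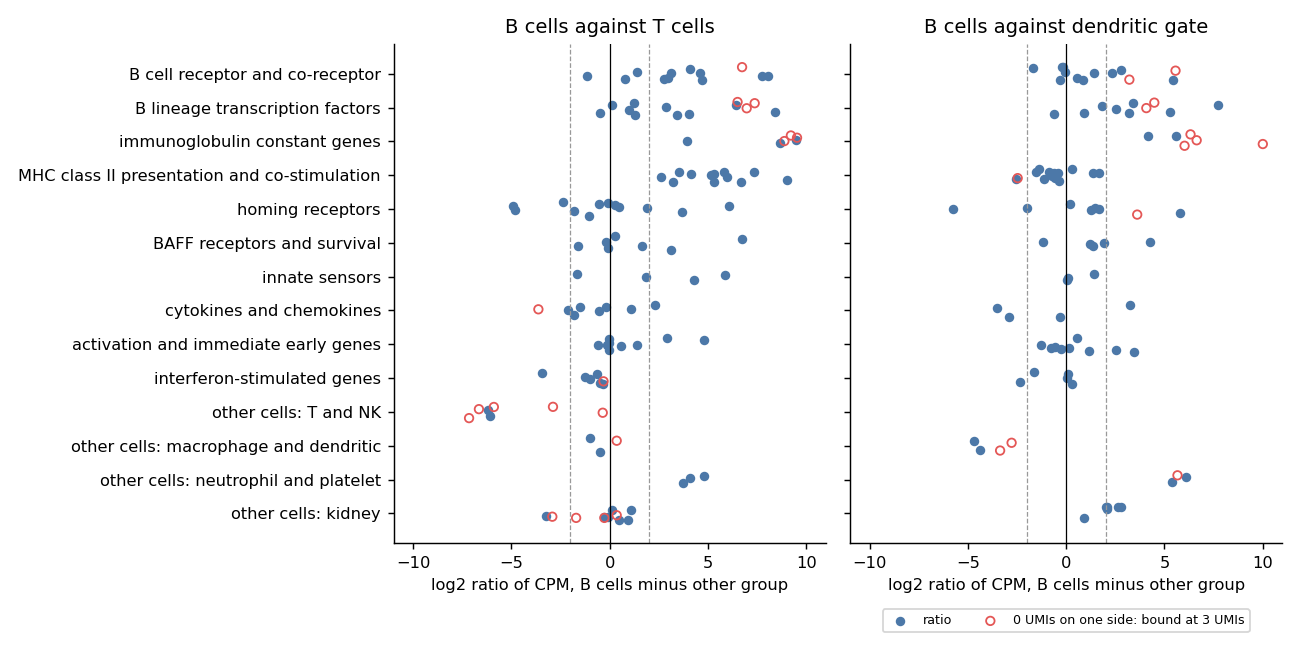
log2 ratio of CPM in B cells to T cells (left) and to the dendritic gate (right) for each listed gene that was tested, in rows by list, with dashed lines at 4-fold. Open circles mark genes at 0 UMIs in 1 of the groups, placed at the bound from 3 UMIs. The first 3 lists lie mostly to the right in both panels, and the MHC class II genes lie to the right of 0 in the left panel and mostly to the left of 0 in the right one.

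B and T cells were spread unequally over the libraries, so listed genes were also compared within libraries 1, 2 and 3, where both groups had over 20 cells. Only the direction was counted, with no 4-fold limit and no interval. Libraries 1, 2 and 3 held most of the pooled B and T cells. The directions there were thus largely set by the pooled calls and are no separate support for them. Of 51 listed genes called higher over all libraries, 47 were higher within library 1, 48 within library 2 (50 had a UMI) and 50 within library 3. The exceptions were Il1b, S100a8, S100a9 and Retnlg in library 1, S100a8 and S100a9 in library 2, and Fcgr2b in library 3. Of 21 called lower, 20, 20 and 21 were lower, the exceptions being Mki67 in library 1 and Umod in library 2. The within-library ratio of Cd74 was 7.40, 5.09 and 4.49 in libraries 1 to 3.

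**Figure D5:**
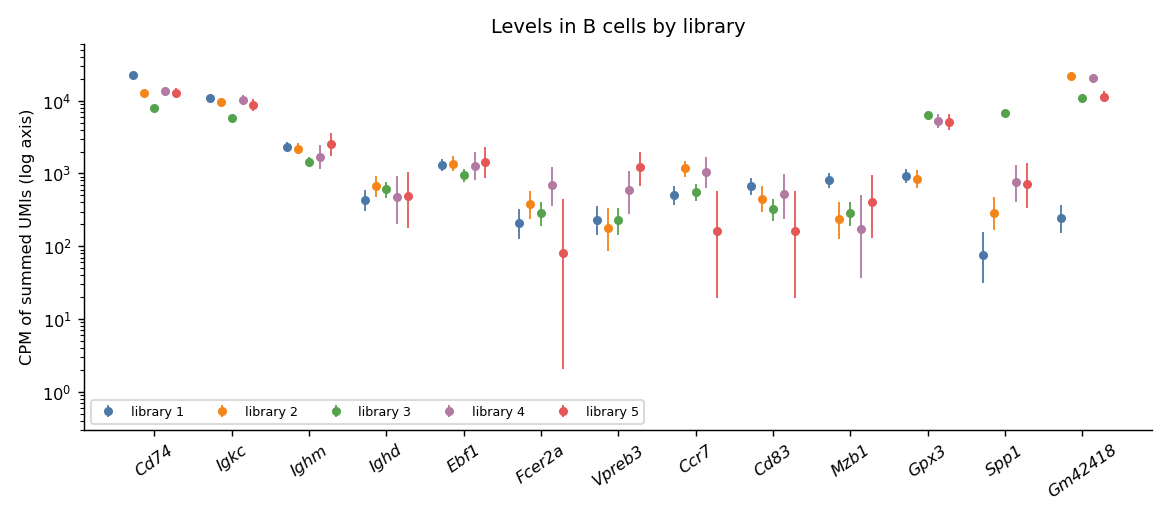
Level of 13 genes in the B cells of each library (CPM on a log axis, points with exact Poisson 95% intervals). Ebf1 and Ighd differed little between libraries, Cd74 was highest in library 1 at 22521 CPM, Gpx3 was lowest in libraries 1 and 2, Spp1 stood out in library 3 at 6863 CPM, and Gm42418 was lowest in library 1 at 241 CPM.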

How the data were processed

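Single cells of 5 kidney samples were captured with the 10x Chromium 3′ chemistry (version 3.1 kit). The authors aligned reads to mm10 with Cell Ranger 6.0, per the labels and the study's methods, and deposited 1 merged matrix of raw UMI counts (32285 genes, 10474594 barcodes) from before cell calling. The 5 library numbers could not be tied to a sample, so the pooled counts were described and no test over samples was run.

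Barcodes were selected by the rule in the text. Members and gene lists were chosen with earlier results of these data known. Named genes are those of 21 lists and the 15 leading genes; others were named after their values were seen. Some genes are not reported here and were left out of the lists, the marker check and the ranking. CPM of summed UMIs was given with exact Poisson intervals, ratios with exact conditional binomial intervals and shares with Clopper-Pearson intervals (Python 3.11.15, numpy 2.4.6, scipy 1.17.1). A count of 0 was set to 3 UMIs over the group for bounds. UMIs were treated as independent, so intervals leave out the spread between cells. Ratios and intervals were tested on simulated data with independent UMIs. Such data cannot show how the intervals hold where UMIs gather in few cells. No doublet caller was run; possible doublets were left out in an alternative. B cells held 17120 to 106222 UMIs in 4 of the libraries and 12421 in library 5. Gene positions are from GENCODE M21 (GRCm38).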

Additional observations from a re-analysis of the deposited data

How the results depend on the processing

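Of 142 values, each a result recomputed under another setting, 115 moved by less than their interval (counts by less than 1.5 times) and 27 moved further. Only the MHC class II log2 ratio could change sign, and it stayed below 0 in all 14 of its settings. B cells were 0.312% of barcodes with at least 1000 UMIs and 0.378% with at most 10% mitochondrial UMIs. Without the Ms4a1 requirement there were 372 barcodes (0.470%), 524 genes were higher than in the dendritic gate, and the MHC class II log2 ratio to that gate was -1.47. These 372 took in the 6 barcodes of the antibody-secreting gate, so values without this requirement are not of B cells alone. With at least 4 Cd79 UMIs the share was 0.167% and the MHC ratio -0.88. With no Lyz2 and no Lrp2 UMI they were 0.182% and -0.93. Without possible doublets (5 cells) the MHC ratio was -1.03 and 0% were cycling, and without immunoglobulin and mitochondrial genes in the total the MHC ratio was -0.89. With no minimum of UMIs, 387 genes were higher and 476 lower than in T cells, and 582 were higher and 534 lower than in the dendritic gate. Switched cells were 4.25% (1.96 to 7.91) without the Ms4a1 requirement and 0.893% (0.0226 to 4.87) without possible doublets, against 1.72% (0.209 to 6.09). With classes at 10 UMIs and 75% they were 0%, with an interval up to 45.9% because few cells could be classed. The cause of these shifts was not tested, beyond the smaller or larger set of cells or genes each setting keeps.

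Leaving out each library in turn gave 109 to 171 B cells (109 without library 3), a share of 0.181% to 0.257%, lambda at 13.0% to 16.1%, switched cells at 0% to 2.53% and cycling cells at 0% to 0.917% (both 0% without library 1). It gave 148 to 177 genes higher and 414 to 484 lower than in T cells. Against the dendritic gate 137 to 216 were higher (137 without library 3) and 178 to 301 lower (178 without library 2, 190 without library 1), and the MHC ratio was -1.44 to -0.70. Of 72 listed genes called against T cells 14 lost the call without some library, and of 53 called against the dendritic gate 29. The added alternative without the 3 neutrophil-rich cells, chosen after seeing the data, moved none of these results beyond those limits.

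No paired analysis was possible because each condition has 1 sample and the columns carry no replicate number. Depth limits the detection of subset genes, since a B cell had a median of 1383.5 UMIs.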

Other observations

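The Ms4a1 requirement left out 192 barcodes that met every other limit. Those with at least 2 UMIs each of Mzb1 and Jchain were set aside, and 186 remained. They lay in libraries 1 to 5 as 34, 25, 112, 12 and 3, at a median of 1316.5 UMIs. At least 3 of the 9 checked B cell genes had a UMI in 165 of them, with a median of 4. Igkc was found in 95.7% and Ebf1 in 71.5%, against 92.8% and 78.3% of B cells (after thinning 93.2% and 59.2%, against 92.5% and 68.8%), and Ighm was at 1074 CPM against 1943. Cd74 was at 7451 CPM against 14124, and Spp1 at 7000 CPM against 2740. Library 3 held 112 of the 186 but 71 of the 180 B cells. Among B cells Cd74 and Ighm were lowest in that library (8021 and 1440 CPM), and its level of Spp1 in barcodes of 10 to 100 UMIs was the highest. The part of the libraries in these differences was not tested.

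Ly6d, a surface protein of lymphocytes, was at 1996, 1188, 1563, 2804 and 2898 CPM in the B cells of libraries 1 to 5, and Cd37, a tetraspanin of mature B cells, at 1514, 648, 537, 1051 and 725 CPM. The first was lowest in library 2 and the second highest in library 1.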
